A study of Mus musculus with 6 samples.

Results

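The nuclear genes for subunits of oxidative phosphorylation (OXPHOS) were examined in the prefrontal cortex (PFC) of wild-type (WT) and P301S Tau mice. They were chosen by symbol alone, as every gene whose name starts with Ndufa, Ndufb, Ndufc, Ndufs, Ndufv, Uqcr, Sdh, Cox4 to Cox8 or Atp5 in the pattern of a subunit gene. This gave 84 of the 54429 genes in the files. The count model tested 82 of these 84 genes among 20409 genes in all. The tested genes were 35 of complex I, 4 of complex II, 8 of complex III, 18 of complex IV and 17 of complex V. Ndufa4 was counted with complex IV, where its protein is now placed. Cox7a2l and Atp5s have subunit-like names without being core subunits, and Cox6c2 is annotated as a processed pseudogene.

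Oxidative phosphorylation makes most of the ATP that neurons spend on ion pumping and synaptic transmission. Complexes I and II pass electrons from NADH and succinate to ubiquinone, complex III passes them on to cytochrome c, and complex IV passes them to oxygen. Complexes I, III and IV pump protons across the inner mitochondrial membrane, and complex V, the ATP synthase, uses the returning protons to make ATP. Most subunits are encoded in the nucleus, and the remaining ones in mitochondrial DNA.

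The 3 groups held 2 mice each, all 6 months of age. WT mice were on the C57BL/6 x C3H background and received vehicle. Tau mice carried PS19(P301S), a transgene for mutant human tau that is driven by the promoter of the mouse prion gene Prnp, and received vehicle. The third group, here UNC, carried the same transgene and received UNC0642, an inhibitor of the histone H3 lysine 9 methyltransferases EHMT1 and EHMT2, in 3 daily injections of 1 mg/kg. Total RNA depleted of ribosomal RNA was sequenced from bulk tissue, so that fewer cells of a type and less RNA per cell cannot be told apart.

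Total counts were 17005664 to 28972176 per library, and 1 of the 6 libraries went against its label. Prnp, the gene whose promoter drives the transgene, had a normalized count of 1652 CPM (TMM-scaled to library size) in the library labelled WT replicate 1, within the 1470 to 1694 CPM of the 4 Tau and UNC libraries, against 873 CPM in WT replicate 2. Xist and the Y-linked gene Ddx3y gave the female pattern in WT replicate 2 and both Tau libraries and the male pattern in the other 3, so that UNC0642 and sex cannot be told apart in the comparison of UNC with Tau mice. The 6 cortical excitatory neuron markers summed to 2166 and 2538 CPM in WT, 2642 and 2257 CPM in Tau, and 2256 and 2176 CPM in UNC. Oligodendrocyte and striatal neuron markers were highest in Tau replicate 2, with 5423 CPM against 1431 to 2915 CPM and 166 CPM against 63.6 to 78.2 CPM. The medians of the subunit genes against WT are therefore given with both WT libraries and without each of them. The part of these differences in the results was not tested. The labels do not say more about the 2 mice of a group than that they were biological duplicates.

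Several subunit genes have intronless copies elsewhere in the genome whose sequence is almost the same as their own messenger RNA. The copies are shown first, because a read of the shared sequence could be counted at either place. The lines below give the first 90 coding bases of Cox7c and Atp5l and of their copies with the most counts, 5′ to 3′, from GENCODE M21 transcripts (GRCm38), with bases that differ from the parent gene in capitals.
Cox7c: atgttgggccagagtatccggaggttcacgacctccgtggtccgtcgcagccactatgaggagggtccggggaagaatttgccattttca
Gm12338: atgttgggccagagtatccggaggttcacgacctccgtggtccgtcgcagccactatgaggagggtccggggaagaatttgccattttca
Gm10012: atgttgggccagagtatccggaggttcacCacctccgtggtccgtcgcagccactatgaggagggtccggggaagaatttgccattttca
Atp5l: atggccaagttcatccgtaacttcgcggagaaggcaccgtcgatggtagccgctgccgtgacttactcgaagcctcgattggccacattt
Gm10221: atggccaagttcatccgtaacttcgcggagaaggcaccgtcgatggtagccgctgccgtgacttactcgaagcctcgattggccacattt

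Cox7c, a small complex IV subunit, lies at chr13:86044816-86046904 on the minus strand, and its copy Gm12338 at chr11:75599763-75599954. Their 90 bases did not differ, and Gm10012 differed from Cox7c at 1 base. Atp5l, subunit g of complex V, lies at chr9:44912557-44920742 on the minus strand, and the 90 bases of Gm10221 at chr5:24581554-24581862 did not differ from it. Cox7c had a mean of 5.77 CPM and Gm12338 42.5 CPM. Atp5l had 6.02 CPM and Gm10221 44.5 CPM. Both genes stood below most other subunits of their complexes in the files, and these copies had more counts than the genes. Whether reads of the genes were counted at the copies was not tested.

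Near-identical genes, with at least 95% identity over at least 80% of the coding sequence, were found for 21 of the 82 tested subunit genes. The copies held 88.3% of the summed CPM for Atp5l, 88.1% for Cox7c, 66.8% for Ndufs5, 62.5% for Atp5g1, 62.3% for Atp5h, 52.2% for Uqcrb, 47.4% for Ndufa12 and 46.4% for Cox5b. For the remaining 13 genes the copies held 0.444% to 32.8%. The levels and fold changes of these genes are uncertain, since reads that match a gene and its copy equally cannot be assigned from their sequence. How such reads were counted is not given in the sources used here.

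**Figure D1:**
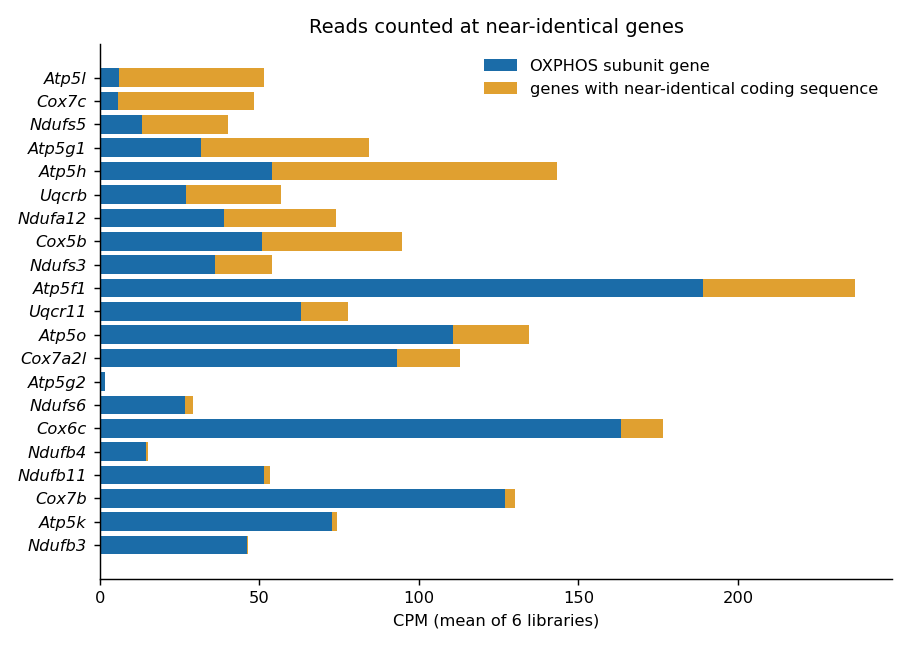
Mean CPM of the 6 libraries (x axis) for the 21 OXPHOS subunit genes with near-identical genes, with reads counted at the subunit gene in blue and at its near-identical genes in orange. Atp5l and Cox7c have 6.02 and 5.77 CPM of their own and 45.6 and 42.7 CPM at their copies.

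Per kilobase of transcript, the highest mean levels over the 6 libraries were those of Atp5b, the catalytic beta subunit of complex V, with 585 CPM per kb, Cox8a with 538, Cox4i1 with 456 and Atp5a1 with 372. Both Cox8a and Cox4i1 are the ubiquitous forms of their complex IV subunits. Subunit forms known from muscle, heart, lung or testis were near the bottom. Cox7a1, the heart and muscle form of subunit 7a, had 3.08 CPM per kb against 199 for Cox7a2. Cox6a2, the muscle form of subunit 6a, had 2.36 CPM per kb against 280 for Cox6a1. Cox4i2, which is known from lung and smooth muscle, had 0.95 CPM per kb against 456 for Cox4i1. Cox6b2, the testis form of subunit 6b, had 1.26 CPM per kb against 233 for Cox6b1. Among the genes for subunit c of complex V, Atp5g3 had 205 CPM per kb, Atp5g1 53.3 and Atp5g2 3.53.

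The test left out 2 forms. Cox8b, the muscle form of subunit 8, had a mean of 0.084 CPM, below the 0.104 to 0.176 CPM that 3 counts make in these libraries. Cox8c had 0 counts in all 6 libraries, which allows up to 3 counts in each, and this covers counting error only. All 13 subunits encoded in mitochondrial DNA were listed at 0 in every library and were not measured here.

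The subunit genes together were lowest in WT replicate 2. Their summed CPM was 8697 in the library labelled WT replicate 1, 7816 in WT replicate 2, 9003 and 9118 in the Tau libraries, and 9085 and 8725 in the UNC libraries. The gap between the WT libraries was larger than that between the library labelled WT replicate 1 and any Tau or UNC library. As a share of the unscaled counts, the subunit genes were lower in Tau replicate 1 and UNC replicate 2 than in the library labelled WT replicate 1, and WT replicate 2 was again the lowest. WT replicate 2 was the lowest of the 6 libraries in 59 of 82 subunit genes (72.0%), against 18.7% of all genes tested. It lay below WT replicate 1 in 67 of 82.

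WT replicate 2 had the lowest sum in each of the 5 complexes. Complex I genes summed to 2216 and 1960 CPM in WT, 2259 and 2291 CPM in Tau, and 2284 and 2217 CPM in UNC. Complex V genes summed to 3277 and 2872 CPM in WT, 3363 and 3398 CPM in Tau, and 3384 and 3226 CPM in UNC. Complex II genes summed to 698 and 656 CPM in WT, 752 and 734 CPM in Tau, and 720 and 668 CPM in UNC. In complexes II and V, UNC replicate 2 lay between the WT libraries.

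**Figure D2:**
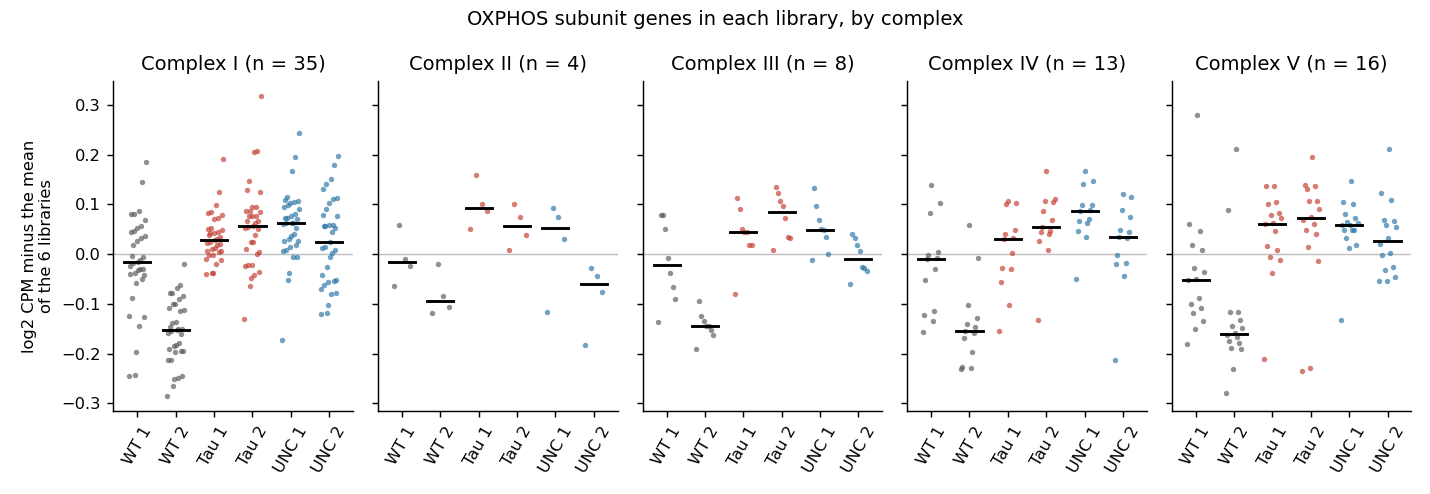
Each point is 1 OXPHOS subunit gene in 1 library, as log2 CPM minus that gene's mean over the 6 libraries (y axis), for genes of at least 5 CPM in complexes I to V (panels). Black bars are medians, gray is WT, red Tau and blue UNC. WT replicate 2 has the lowest median in every complex.

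The first comparison asked which subunit genes differed between Tau and WT mice given vehicle. Most lay slightly higher in Tau mice, and 5 of 82 were called higher and 0 lower by edgeR's quasi-likelihood test when a fold change of 1.2 or more was required beside an unadjusted p under 0.05. The background was 3.72% of all genes called higher and 6.1% called lower. The 5 genes were Ndufa1 and Ndufa12 of complex I, Cox7b of complex IV and Atp5g1 and Atp5j2 of complex V. The median log2 fold change was 0.13, a fold of 1.09, against a median of -0.0001 for all genes and 0.032 for protein-coding genes. It was positive in 72 of 82 subunit genes (87.8%), against 50% of all genes and 57.0% of protein-coding genes. No subunit gene passed Benjamini-Hochberg adjustment in edgeR (smallest adjusted p = 0.252) or in DESeq2 (smallest adjusted p = 0.199), and 14 had an unadjusted p under 0.05 in edgeR, all higher in Tau, against a background of 6.05% of all genes higher and 6.35% lower at that p. Of all genes, 0.157% passed adjustment. Scaled by total library size instead of TMM, 1 was called higher (Ndufa1) and 1 lower (Atp5l), against 415 higher and 1742 lower of 20409 genes. The median was then 0.056, against -0.070 for all genes. With protein-coding genes alone, 2 were called higher (Ndufa1 and Atp5j2) and 1 lower (Atp5l), against 494 higher and 701 lower of 14699 genes.

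Atp5j2, subunit f in the membrane part of complex V (chr5:145183698-145192062), had 77.7 and 76.0 CPM in WT, 91.5 and 97.8 CPM in Tau, and 88.9 and 82.2 CPM in UNC. Both Tau libraries were above both WT libraries, with UNC in between. The log2 fold change of Tau over WT was 0.30 ± 0.08 (SE, n = 2 per group), with an adjusted p of 0.252 in edgeR's quasi-likelihood test.

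Atp5g1, 1 of the genes for subunit c, which forms the rotating ring of complex V (chr11:96068852-96075670), had 28.5 and 28.3 CPM in WT, 34.8 and 34.1 CPM in Tau, and 32.4 and 32.4 CPM in UNC. The 3 groups did not overlap. Its log2 fold change was 0.28 ± 0.10 and stayed at 0.29 when the counts at its copy Gm10039 were added. Atp5g3, a separate gene with the same mature product, had 142 and 120 CPM in WT, 154 and 157 CPM in Tau, and 152 and 153 CPM in UNC. Its log2 fold change was 0.25 ± 0.09, under the fold limit.

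Ndufa1, a small membrane subunit of complex I encoded on the X chromosome (chrX:37187588-37191163), had 30.6 and 28.0 CPM in WT, 34.6 and 42.3 CPM in Tau, and 36.2 and 32.8 CPM in UNC. It had the largest log2 fold change of the 5, 0.39 ± 0.12, and the 2 Tau libraries differed more than the WT libraries did. Without Tau replicate 2, the library with the high oligodendrocyte and striatal markers, only Atp5g1 of the 5 kept a fold change above the limit. The log2 fold changes were 0.25 for Ndufa1, 0.26 for Ndufa12, 0.21 for Cox7b, 0.26 for Atp5j2 and 0.30 for Atp5g1. Without Tau replicate 1, Atp5g1 was the one not called.

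Ndufa12, an accessory subunit of complex I (chr10:94198720-94221443), had 32.6 and 34.2 CPM in WT, 39.9 and 40.9 CPM in Tau, and 41.7 and 44.5 CPM in UNC. All Tau and UNC libraries were above both WT libraries, and the log2 fold change of Tau over WT was 0.27 ± 0.10. With the counts at its copy Gm15920 added, the values were 61.4 and 73.7 CPM in WT, 77.3 and 80.3 CPM in Tau, and 82.4 and 69.0 CPM in UNC. The UNC libraries then lay on either side of WT replicate 2, the log2 fold change of Tau over WT was 0.22, and the gene was not called.

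Cox7b, a small complex IV subunit also encoded on the X chromosome (chrX:106015700-106022450), had 117 and 108 CPM in WT, 129 and 142 CPM in Tau, and 136 and 131 CPM in UNC. Its log2 fold change was 0.27 ± 0.08. Cox6b1, which faces the intermembrane space in complex IV, had 132 and 128 CPM in WT, 154 and 154 CPM in Tau, and 152 and 142 CPM in UNC. Its log2 fold change of 0.25 ± 0.07 was under the fold limit.

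By complex, the median log2 fold change of Tau over WT was 0.13 in complex I, 0.13 in complex II, 0.12 in complex III, 0.11 in complex IV and 0.16 in complex V. The values were positive for 32 of 35, 4 of 4, 8 of 8, 14 of 18 and 14 of 17 genes. Called genes were 2, 0, 0, 1 and 2, in that order, all higher, against a background of 3.72% of all genes called higher. With 4 and 8 tested genes, 0 calls at that background do not set complexes II and III apart. Without the library labelled WT replicate 1, these medians were 0.20, 0.16, 0.21, 0.17 and 0.22. Without WT replicate 2 they were 0.041, 0.087, 0.073, 0.048 and 0.12, and 26 of 35, 4 of 4, 5 of 8, 13 of 18 and 14 of 17 genes were positive. In complex III, Uqcrh, the hinge protein near cytochrome c1, had 120 and 116 CPM in WT, 137 and 140 CPM in Tau, and 128 and 130 CPM in UNC, and Uqcr11 had 57.2 and 57.7 CPM in WT, 68.1 and 67.8 CPM in Tau, and 66.1 and 61.7 CPM in UNC. Neither overlapped between Tau and WT, and their log2 fold changes were 0.22 ± 0.07 and 0.24 ± 0.08, under the fold limit.

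Over all subunit genes, both Tau libraries were above both WT libraries in 48 of 82 and below them in 4, against a background of 21.9% and 21.4% of all genes. The 4 lower ones included Atp5l, which had 7.33 and 6.37 CPM in WT, 5.08 and 4.98 CPM in Tau, and 5.39 and 6.97 CPM in UNC, with a log2 fold change of -0.44 ± 0.21 (adjusted p = 0.413 in edgeR). With the counts at its copies added, Atp5l had 47.7 and 46.6 CPM in WT, 51.3 and 54.9 CPM in Tau, and 54.2 and 55.0 CPM in UNC, and the log2 fold change was 0.17. Cox7c moved from -0.15 to 0.14 and Ndufs5 from -0.06 to 0.20 in the same way. The sign of these 3 genes therefore depended on whether the counts at their copies were added. With all copies added, 76 of 81 subunit genes were positive.

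**Figure D3:**
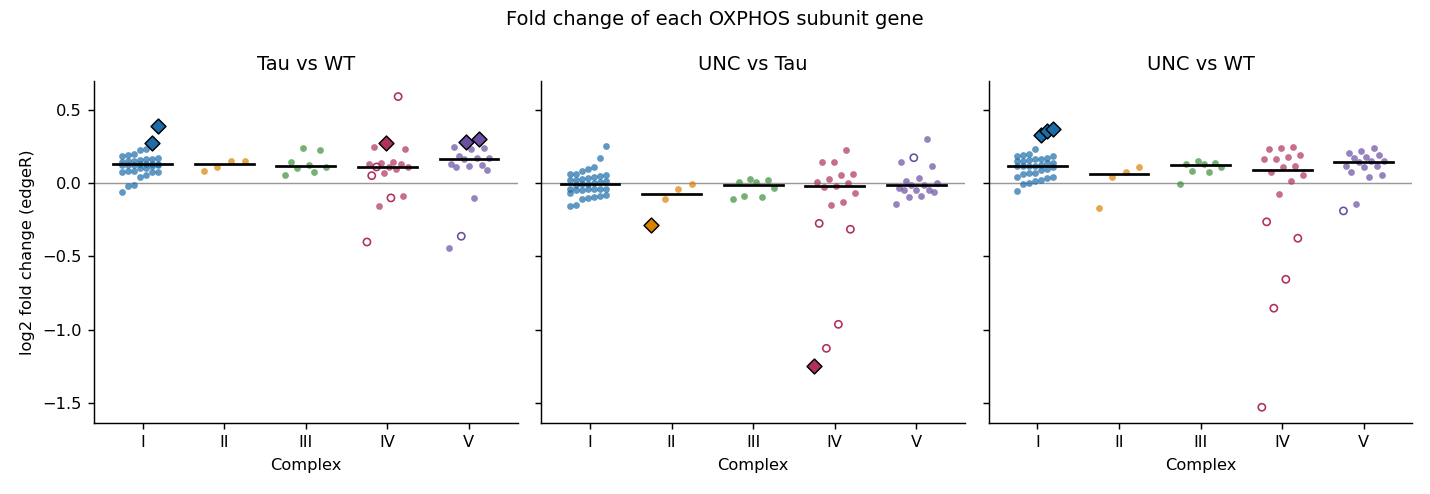
Log2 fold change from edgeR (y axis) of each tested OXPHOS subunit gene by complex (x axis) in the 3 comparisons (panels), with medians as black bars. Diamonds are called genes and open circles genes under 5 CPM. Medians lie at 0.11 to 0.16 for Tau vs WT, at -0.07 to -0.01 for UNC vs Tau and at 0.06 to 0.14 for UNC vs WT.

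The size of this difference depended on which WT library was used. Without the library labelled WT replicate 1, which leaves 1 WT and 2 Tau libraries of the female pattern, the median log2 fold change was 0.20. Without WT replicate 2, which leaves the WT library with Prnp at the level of the Tau libraries, it was 0.064. The medians of all genes in these fits were 0.0006 and -0.0012. In both fits the lone WT library is assumed to vary like the other groups.

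For 4 genes that code for catalytic or electron-carrying subunits, chosen after their values were seen, the value without WT replicate 2 was near 0 or below. Atp5a1, the alpha subunit of complex V, had 955 and 812 CPM in WT, 955 and 947 CPM in Tau, and 956 and 882 CPM in UNC. Its log2 fold change of Tau over WT was 0.23 without the library labelled WT replicate 1 and -0.0043 without WT replicate 2. Atp5b had 1154 and 981 CPM in WT, 1155 and 1178 CPM in Tau, and 1156 and 1098 CPM in UNC, and its log2 fold changes in these fits were 0.25 and 0.017. Ndufv1, which binds NADH, had 179 and 138 CPM in WT, 160 and 153 CPM in Tau, and 167 and 150 CPM in UNC, with 0.18 and -0.19, a change of sign. Uqcrfs1, the Rieske iron-sulfur protein of complex III, had 101 and 85.9 CPM in WT, 99.0 and 102 CPM in Tau, and 94.8 and 91.7 CPM in UNC, with 0.22 and -0.0053. For all of these but Atp5b, the library labelled WT replicate 1 was at or above at least 1 Tau library.

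For 4 other genes, also chosen after their values were seen, the values in both fits were close. Atp5j2 had 0.31 without the library labelled WT replicate 1 and 0.28 without WT replicate 2, Atp5g1 0.28 and 0.28, Uqcr11 0.23 and 0.25, and Cox6b1 0.26 and 0.23. Other small subunits differed between the fits, such as Ndufc2 with 0.34 and 0.022, Cox6c with 0.25 and 0.021 and Ndufb3 with 0.20 and -0.039. Of the genes called in the full comparison, Atp5g1, Atp5j2 and Ndufa1 were called in both of these fits.

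**Figure D4:**
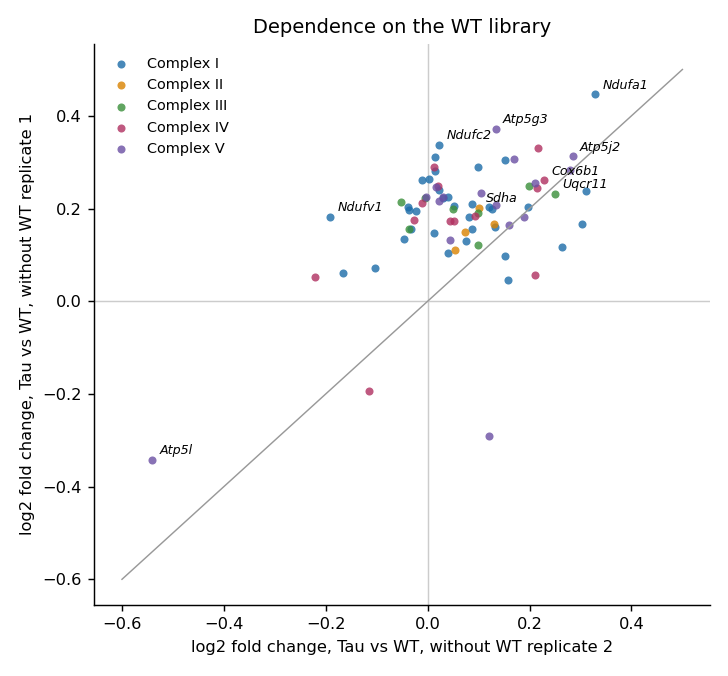
Log2 fold change of Tau over WT for OXPHOS subunit genes of at least 5 CPM, without the library labelled WT replicate 1 (y axis) and without WT replicate 2 (x axis), coloured by complex. The gray diagonal marks equal values. Most genes lie above it, as the medians of 0.20 and 0.064 over the tested genes reflect, while Atp5j2, Cox6b1 and Uqcr11 lie near it.

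The second comparison asked whether UNC0642 altered these genes in Tau mice. The median log2 fold change of the subunit genes was -0.014 against -0.0023 for all genes, and 36 of 82 were positive. No gene was called higher and 2 were called lower, Sdhc and Cox7a1, against a background of 3.73% of all genes called higher and 3.95% called lower. Scaled by total library size, the calls were 1 higher (Ndufb6) and 1 lower (Cox7a1), against 900 higher and 635 lower of 20409 genes. Without the fold limit the same 2 genes had an unadjusted p under 0.05, against 4.06% of all genes higher and 4.8% lower. Neither passed adjustment in edgeR (smallest adjusted p = 0.421), which 0.0196% of all genes did, and DESeq2 gave 0 adjusted calls as well. Both UNC libraries were above both Tau libraries in 18 genes and below them in 17, against a background of 20.4% and 20.9% of all genes.

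Sdhc is a membrane anchor of complex II that holds the ubiquinone site (chr1:171127165-171150603). It had 67.7 and 64.1 CPM in WT, 72.6 and 69.7 CPM in Tau, and 59.9 and 57.2 CPM in UNC. Both UNC libraries were the lowest of the 6. The log2 fold change of UNC over Tau was -0.28 ± 0.08 (95% interval -0.47 to -0.094, adjusted p = 0.421 in edgeR), and of UNC over WT -0.17 ± 0.08, which was not called. The other anchor, Sdhd, had 73.4 and 71.3 CPM in WT, 81.6 and 78.8 CPM in Tau, and 80.9 and 75.3 CPM in UNC, and was not called. Sdha, the catalytic flavoprotein, had 440 and 409 CPM in WT, 476 and 467 CPM in Tau, and 453 and 421 CPM in UNC, and was not called either.

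Cox7a1 (chr7:30184144-30186078) had 0.788 and 1.52 CPM in WT, 1.72 and 1.77 CPM in Tau, and 0.71 and 0.75 CPM in UNC. Its log2 fold change of UNC over Tau was -1.25 ± 0.45 (adjusted p = 0.480 in edgeR), on 12 to 48 counts per library. The 5 skeletal muscle markers summed to 9.35 to 11.8 CPM in the 6 libraries. The 6 mural cell markers summed to 218 and 214 CPM in WT, 193 and 199 CPM in Tau, and 181 and 173 CPM in UNC, and their part in this difference was not tested. The Tau and UNC libraries did not overlap in either gene. Sdhc was not called without Tau replicate 1, where its log2 fold change was -0.25, Cox7a1 was not called without UNC replicate 1, where it was -1.21, and neither was called without UNC replicate 2, where they were -0.25 and -1.29.

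Intervals for the abundant subunits Atp5b and Sdha included 0 and were wider than the median log2 fold change of 0.13 for Tau over WT. The log2 fold change of UNC over Tau was -0.05 for Atp5b (95% interval -0.24 to 0.14) and -0.11 for Sdha (-0.28 to 0.059). A term for the female or male pattern, which is estimated from the 2 WT libraries alone, moved the median to -0.14. The calls became 10 lower, with Sdhc among them and Cox7a1 not, against 825 higher and 817 lower of 20409 genes. Sex and the difference between the WT libraries cannot be told apart in that term.

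**Figure D5:**
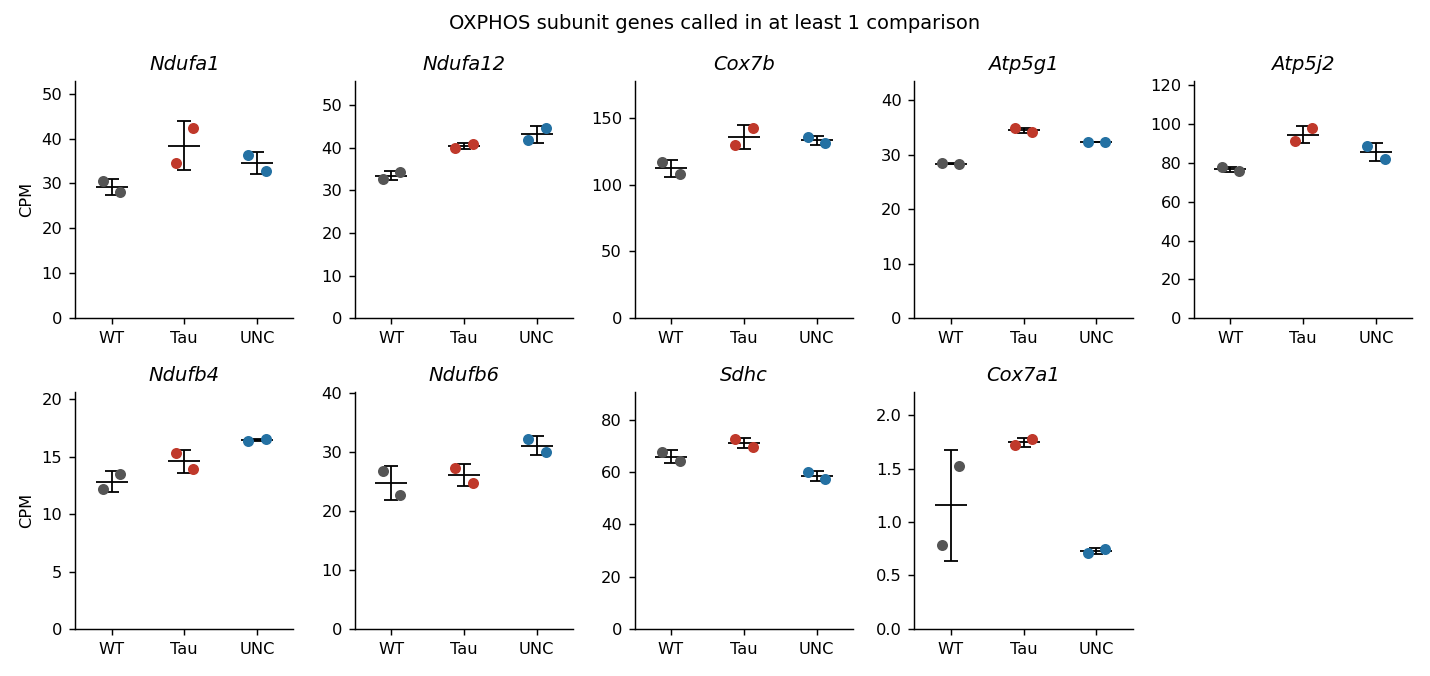
CPM (y axis, from 0) of the 9 OXPHOS subunit genes called in at least 1 comparison, in WT, Tau and UNC (x axis). Points are single libraries, long bars means and whiskers 1 SD of the 2 libraries. The UNC libraries lie lowest for Sdhc, and the WT libraries lowest for Ndufa1, Ndufa12, Cox7b, Atp5g1 and Atp5j2.

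The third comparison set UNC against WT mice and shares its libraries with the others. It called 3 subunit genes higher and 0 lower, against a background of 3.77% and 5.69% of all genes, so the share called higher was near the background. All 3 were accessory subunits of complex I, which made up 35 of the 82 tested genes. The median log2 fold change was 0.12, with 70 of 82 positive, and both UNC libraries lay above both WT libraries in 48 genes and below in 4, against 22.1% and 22.3%. No gene passed adjustment in edgeR (smallest adjusted p = 0.185), which 0.216% of all genes did, and 11 had an unadjusted p under 0.05, all higher in UNC, against 5.89% of all genes higher and 6.2% lower. DESeq2 gave 0 adjusted calls as well.

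Ndufa12 had a log2 fold change of UNC over WT of 0.37 ± 0.10 (adjusted p = 0.185 in edgeR), which was 0.16 and not called with its copy added. Ndufb4, a membrane-arm subunit (chr16:37647170-37654453), had 12.2 and 13.5 CPM in WT, 15.3 and 13.9 CPM in Tau, and 16.4 and 16.5 CPM in UNC, with a log2 fold change of 0.36 ± 0.13. Ndufb6, also of the membrane arm (chr4:40270591-40279421), had 26.8 and 22.7 CPM in WT, 27.3 and 24.7 CPM in Tau, and 32.1 and 29.9 CPM in UNC, with 0.33 ± 0.12. In Ndufb6 the WT and Tau libraries overlapped and both UNC libraries were above them. Without the library labelled WT replicate 1 the median of the subunit genes was 0.17, against -0.0043 for all genes. Without WT replicate 2, which leaves WT and UNC libraries of the male pattern, it was 0.067, against -0.0057 for all genes. Ndufb4 was not called without the library labelled WT replicate 1 or without either UNC library, and Ndufb6 was not called without WT replicate 2 or UNC replicate 1.

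The other genes of the pathway were taken from lists of known members. Among 6 tested genes for other subunits and cytochrome c, the median log2 fold change of Tau over WT was 0.13. Of these, 5 were positive and 1 was called higher, against 3.72% of all genes. Their median was 0.14 without the library labelled WT replicate 1 and 0.12 without WT replicate 2. Among 47 tested assembly factors, the median log2 fold change of Tau over WT was 0.086, with 34 positive, 2 called higher and 0 lower, against the background of 3.72% higher. These were Ndufaf4, with 34.1 and 31.2 CPM in WT and 41.3 and 41.9 CPM in Tau, and Tmem126b, with 33.2 and 33.5 CPM in WT and 41.6 and 39.5 CPM in Tau, both known as complex I assembly factors. The median of the assembly factors was 0.11 without the library labelled WT replicate 1 and 0.082 without WT replicate 2. All 18 genes of the tricarboxylic acid cycle and pyruvate dehydrogenase were positive with a median of 0.13, and 0 were called. Their median was 0.19 without the library labelled WT replicate 1 and 0.076 without WT replicate 2. All 9 carriers and porins were positive with a median of 0.17, and 0 were called. Without the library labelled WT replicate 1 the median was 0.23, and without WT replicate 2 it was 0.072. Of UNC over Tau, the cycle genes had a median of -0.088, with 2 of 18 positive and 0 called. Among 13 regulators of mitochondrial biogenesis the median of Tau over WT was 0.049, with 7 positive, and it was -0.044 without Tau replicate 1. Of these, 1 was called higher, the estrogen-related receptor gene Esrra, with 32.9 and 28.5 CPM in WT and 38.1 and 36.3 CPM in Tau, and it was not called without WT replicate 2 or without either Tau library. Nrf1, a transcription factor of many subunit genes, was called higher in UNC than in Tau mice, with 16.6 and 15.8 CPM in Tau and 19.1 and 24.0 CPM in UNC. The log2 fold change was 0.42 ± 0.14 (adjusted p = 0.444 in edgeR), 1 of 13 against the background of 3.73% higher, and it was not called without Tau replicate 2 or without UNC replicate 2. The master coactivator Ppargc1a had 53.3 and 55.9 CPM in WT, 56.1 and 52.0 CPM in Tau, and 48.6 and 46.1 CPM in UNC, and was not called between UNC and Tau.

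Promoters were searched because genes of this pathway are known to share binding sites for NRF1, ETS family factors (GABP) and YY1. RefSeq windows of 250 bases before to 50 after the start (GRCm38.p6) were matched to 68 of the 84 genes. GCGCATGC (NRF1) was found on either strand in 10 of 68 windows (14.7%), against 3.05% of 27025 genes. CCGGAAGT (ETS) was found in 5 (7.35%), against 4.31%, and AAGATGGC (YY1), which can also arise where a start codon lies near the transcript's start, in 10 (14.7%), against 3.19%. At least 1 of the 3 was in 24 windows (35.3%), against 9.91% of all genes, and the window of Uqcr11 held both the NRF1 and the ETS motif. The stretches below, upstream of the start and 5′ to 3′ on the gene's strand, show Cox7b, called in Tau mice with none of the 3 in its window, Uqcrh and Uqcr11 with the ETS motif, and Atp5l with the NRF1 motif in capitals.
Cox7b: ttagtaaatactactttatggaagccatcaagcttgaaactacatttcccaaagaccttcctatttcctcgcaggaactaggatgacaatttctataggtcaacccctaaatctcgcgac
Uqcrh: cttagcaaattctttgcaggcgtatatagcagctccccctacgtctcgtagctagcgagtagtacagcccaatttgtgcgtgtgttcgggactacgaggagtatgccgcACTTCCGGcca
Uqcr11: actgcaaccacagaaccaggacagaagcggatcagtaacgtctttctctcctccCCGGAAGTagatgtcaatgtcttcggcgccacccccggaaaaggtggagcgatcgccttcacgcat
Atp5l: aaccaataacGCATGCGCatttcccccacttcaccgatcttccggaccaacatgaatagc

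The stretches lie at chrX:106015580-106015699 (plus strand), chr4:116075071-116075190, chr10:80406822-80406941 and chr9:44920933-44920992 (minus strand). In Uqcrh the motif starts 11 bases before the transcription start and reads on the opposite strand, and in Uqcr11 it starts 66 bases before. In Atp5l the NRF1 motif starts 240 bases before and also reads on the opposite strand. A match is a description of the letters and not a measured binding site.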

How the data were processed

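The authors trimmed reads with Cutadapt, aligned them with TopHat2 to RefSeq mRNAs and counted them with featureCounts, and they deposited raw counts per gene. Their processing notes also name mm10, SAMtools and edgeR. In 2 libraries, 26 gene names had become dates and were joined by position. Genes were filtered with filterByExpr and scaled by TMM (factors 0.966 to 1.04). All 6 libraries were fitted with edgeR 4.0.16 (quasi-likelihood, a mean per group, 3 residual degrees of freedom, biological coefficient of variation 12.3%) in R 4.3.3, and p-values were adjusted by Benjamini-Hochberg over all genes. CPM values are scaled by TMM. Each SE is the absolute log2 fold change divided by the square root of the quasi-likelihood F statistic of that comparison. The intervals were built from these SEs. A gene was called when its unadjusted p was under 0.05 and it changed by 1.2-fold or more, the study's threshold. Groups and replicate numbers came from the sample titles. Positions, transcript lengths and coding sequences came from GENCODE M21, where 53743 of 54429 symbols matched a single gene, and near-identical genes were found with blastn 2.17.0. In simulated data for Tau vs WT with 19849 genes, 92% of 100 genes changed by 1.5-fold and 100% of 100 changed by 3-fold were called, as were 884 of 19649 unchanged genes. The changed genes were drawn above an expression floor and folds under 1.5 were not simulated, so recovery of smaller changes is not known.

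The genes, companion lists and marker lists were chosen with earlier results of these data known. Named are the genes called in any comparison, the 2 smallest p-values per complex in Tau vs WT and UNC vs Tau, fixed catalytic and core subunits and fixed tissue forms. Other genes, such as Ndufs5, and the copies were named after their values were seen. DESeq2 1.42.0, other scalings, filters, thresholds, a replicate block, a sex term and fits without each library were tried as alternatives. A fit to protein-coding genes alone and one with copies added were chosen after the data were seen. The YY1 motif was shortened to 8 letters after a longer form with fewer matches had been counted. Values of 1 subunit gene are not reported here. With 2 mice per group, the p-values use a spread pooled over the 3 groups and drawn towards that of other genes. The prior degrees of freedom had a median of 7.21, against 3 residual ones. They therefore do not measure the spread of a gene between the mice of the compared groups alone.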

Additional observations from a re-analysis of the deposited data

How the results depend on the processing

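The number of subunit genes called for Tau vs WT, 5 as reported, was 0 at a fold change of 1.5 and 14 with no fold limit. Of all 20409 genes, 212 were called higher and 918 lower at 1.5, and 1234 and 1295 with no fold limit. With total library size in place of TMM the number was 2 (Ndufa1 higher, Atp5l lower), against 415 higher and 1742 lower of 20409 genes. With at least 10 counts in every library it was 2, against 581 higher and 1033 lower of 16879. With a sex term the number was 15, all higher, against 945 higher and 935 lower of 20409 genes. With protein-coding genes alone it was 3 (2 higher, 1 lower), against 494 higher and 701 lower of 14699. For UNC vs Tau, 2 as reported, it was 1 at a fold change of 1.5, against 543 higher and 312 lower of 20409 genes. With a sex term it was 10, all lower, against 825 higher and 817 lower. For UNC vs WT, 3 as reported, it was 0 at a fold change of 1.5, against 204 higher and 580 lower of 20409 genes. It was 11 with no fold limit, against 1202 and 1266, and 2 with a sex term, against 986 and 1082. With Benjamini-Hochberg adjustment it was 0 in each comparison. The median log2 fold change of the subunit genes for Tau vs WT, 0.13 as reported, was 0.056 with total library size and 0.20 with the sex term. That of all genes, -0.0001 as reported, was -0.070 and 0.0054 in these fits. For UNC vs Tau the median of the subunit genes was -0.14 with the sex term instead of -0.014, and that of all genes -0.010 instead of -0.0023. Leaving out each library in turn, the calls ranged from 3 to 13 for Tau vs WT, from 1 to 2 for UNC vs Tau and from 2 to 12 for UNC vs WT. The medians ranged from 0.064 to 0.20 for Tau vs WT, from -0.054 to 0.0086 for UNC vs Tau and from 0.067 to 0.17 for UNC vs WT. The cause of these changes was not tested. With copies added, Ndufa12 was not called in either comparison with WT.

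With the replicate number as a block, the calls were 5, 2 and 3. The numbers do not pair the samples: correlations of replicate differences between groups were -0.034, -0.021 and -0.0033. The block changed no call. Genes near 1 CPM, such as Cox7a1, rest on few counts, and 2 libraries per group limit all of these tests.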

Other observations

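Among subunit genes of at least 5 CPM, shorter transcripts tended to have higher fold changes of UNC over WT. Spearman's rho between transcript length and log2 fold change was -0.341 over 75 genes, which share the same 4 libraries. Over all 81 tested subunit genes with a transcript length it was -0.168. Over 14699 protein-coding genes of any level it was -0.045, with the merged exon length of the gene in place of transcript length. For Tau over WT the values in this order were -0.151, -0.08 and -0.056, and for UNC over Tau -0.172, -0.083 and 0.004. These are correlations across genes, which are not independent replicates.

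Red blood cell markers summed to 60.7 and 63.4 CPM in WT, 39.7 and 39.0 CPM in Tau, and 41.3 and 66.2 CPM in UNC. Meningeal fibroblast markers were highest in WT replicate 2, with 53.9 CPM against 28.3 to 38.3 CPM in the other libraries. Endothelial markers summed to 116 and 108 CPM in WT, 81.3 and 85.6 CPM in Tau, and 86.6 and 117 CPM in UNC. In Tau against WT mice, 2 of 5 endothelial, 2 of 5 red blood cell and 2 of 6 mural cell markers were called lower, against 6.1% of all genes. Microglia markers summed to 212 and 247 CPM in WT, 265 and 269 CPM in Tau, and 246 and 234 CPM in UNC. In Tau against WT mice, 2 of 6 microglia, 6 of 6 striatal neuron and 3 of 8 oligodendrocyte markers were called higher, against 3.72% of all genes. The striatal and oligodendrocyte medians of log2 fold change were 1.06 and 0.78, and 0.18 and -0.14 without Tau replicate 2. Of the cortical excitatory neuron markers, 2 of 6 were called lower in UNC than in Tau mice, with a median log2 fold change of -0.23. Striatal neuron markers had 5 of 6 called lower in that comparison, and oligodendrocyte markers 2 of 8, against 3.95% of all genes. The part of these markers in the subunit results was not tested. Astrocyte markers summed to 4077 to 4685 CPM, interneuron markers to 627 to 796 CPM, parvalbumin interneuron markers to 340 to 411 CPM and choroid plexus markers to 1.84 to 4.01 CPM.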
